A study of Mus musculus with 3 samples.

Results

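The genes described here are 10 regulators that hold T cells at rest or whose mRNA is known to fall when T cells are activated: the Krüppel-like factors Klf2, Klf3, Klf6 and Klf13, the forkhead factors Foxo1, Foxo3 and Foxp1, and the antiproliferative proteins Btg1, Btg2 and Tob1. They were chosen by gene name from a written list, without a threshold on these counts but with earlier results of these data known. All 10 were found among the 50600 genes of the count tables. RNA was sequenced from mouse T-helper 1 (Th1) cells, helper T cells known for secreting interferon-gamma. The labels describe primary cells of strain C57BL/6NJ with no further allele or agent, point to a CD4+ T cell differentiation protocol, and record sex as not collected and age as unknown. The 3 libraries, biological replicates 1, 2 and 3, form 1 group with 1 shared donor entry, so no treated, resting or untreated group was set against them. Nothing in the labels says that the cultures came from separate animals, so any p-value measures only the spread between these samples, part of which may be technical. A time point of 2 hours appears in the command lines of the file headers, and the labels have no such entry.

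Quiescence is an actively kept state of T cells. FOXO factors enter the nucleus when the kinase AKT is inactive and switch on genes of survival and homing, among them Klf2. KLF2 in turn supports the receptors that let naive T cells recirculate, and antigen receptor signalling shuts this axis off through AKT and FOXO export. BTG and TOB proteins act on mRNA: they bring the CCR4-NOT deadenylase to transcripts and thereby shorten poly(A) tails.

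The libraries held 4442901, 3123869 and 2950658 counts in replicates 1, 2 and 3. The 10 genes took 6413, 2686 and 2449 of them. Of 12 pan-T markers all reached 1 TPM (a transcript level: the count per exon base, scaled so that each library has the same sum) in every library, and Cd4 had 1234, 636 and 659 counts. Of the CD8 genes, Cd8a had 2, 1 and 0 counts and Cd8b1 had 34, 16 and 10, or 6.73 ± 3.36 TPM (SD, n = 3). Th1 markers were mixed: 5 of 10 reached 1 TPM in every library. Tbx21, the defining factor, was among these 5, with 19, 7 and 11 counts, or 2.53 ± 0.997 TPM (SD, n = 3). So were Stat4, with 197, 80 and 88, and Il12rb2, which is opposed, with 79, 117 and 62. Ifng was not, with 1, 2 and 0. Foxp3, the regulatory T cell factor, which is opposed and in none of these marker lists, stood above Tbx21. It had 491, 412 and 457 counts, or 59.6 ± 6.85 TPM (SD, n = 3). The lists of other cell types had some members at 1 TPM or more and others without a count. In the endothelial and stromal list, where KLF2 and KLF4 act in vessel lining, 6 of 9 genes had no count, Cdh5, Kdr and Tek among them, 1 of 9 (Pecam1) reached 1 TPM in every library, and the summed level ran from 6.01 to 8.99 TPM. In the B cell list 5 of 8 had no count, Ms4a1 and Pax5 among them, 2 of 8 (Cd79a and Ighm) reached 1 TPM in every library, and the summed level ran from 47.3 to 58.3 TPM. In the macrophage and neutrophil list 2 of 8 reached 1 TPM in every library, Csf1r, which is opposed, at 158 ± 25.3 TPM and Cd68 at 7.23 ± 1.39 TPM, while Lyz2, S100a8 and S100a9 had no count and the summed level ran from 137 to 181 TPM. The summed level ran from 6.74 to 7.91 TPM over 6 dendritic cell genes (Cd74 at 1 TPM or more, 3 without a count), from 3.44 to 13.95 over 6 NK cell genes (Tyrobp at 1 TPM or more, 3 without a count) and from 3.29 to 8.93 over 6 erythroid genes (Alas2 and Klf1 at 1 TPM or more, 4 without a count). These are bulk samples, in which fewer cells of a type and less RNA per cell cannot be told apart.

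Counts were made with strand setting 1, under which only pairs whose first read has the orientation of the gene are counted for it. Genes whose exons lie opposite exons of another gene (opposed genes) held 55.1%, 69.1% and 67.3% of all counts in replicates 1, 2 and 3. They were 8189 of the 50600 genes, and 4801 of the 21764 protein-coding genes. Whether the setting matched the libraries was not tested, since that needs the reads or signal tracks separated by strand. With an opposite setting, a member's own reads would be missing from its count, and every level below carries this limit.

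The promoters of 4 members are shown because the results turn on them: Btg1 and Btg2 had the highest levels, Klf2 was the one member highest in replicate 3 after TMM scaling, and Foxo1 carries an opposed first exon. Each stretch is upstream of the RefSeq start (GRCm38.p6, the assembly also called mm10) and of the gene's start in the count tables, printed 5′ to 3′ on the gene's strand. Capitals mark matches on either strand to GGGCGG, the GC box of Sp and KLF factors, to the CCAAT box, to the TATA box TATAAA, to the forkhead element GTAAACA or to TGACGTCA, the cAMP response element (CRE).
Btg1, chr10:96616751-96617000, plus strand: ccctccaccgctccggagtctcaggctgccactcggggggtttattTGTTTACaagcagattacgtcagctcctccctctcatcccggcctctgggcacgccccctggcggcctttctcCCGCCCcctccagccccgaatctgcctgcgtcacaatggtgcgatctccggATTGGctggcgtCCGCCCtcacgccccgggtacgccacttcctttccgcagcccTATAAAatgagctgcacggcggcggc
Btg2, chr1:134079156-134079405, minus strand: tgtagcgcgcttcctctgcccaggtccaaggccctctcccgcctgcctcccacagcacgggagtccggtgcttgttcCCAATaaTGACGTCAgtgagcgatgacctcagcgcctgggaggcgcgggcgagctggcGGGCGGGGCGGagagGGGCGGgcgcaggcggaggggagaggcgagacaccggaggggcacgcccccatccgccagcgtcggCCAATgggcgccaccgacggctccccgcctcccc
Klf2, chr8:72318812-72319032, plus strand: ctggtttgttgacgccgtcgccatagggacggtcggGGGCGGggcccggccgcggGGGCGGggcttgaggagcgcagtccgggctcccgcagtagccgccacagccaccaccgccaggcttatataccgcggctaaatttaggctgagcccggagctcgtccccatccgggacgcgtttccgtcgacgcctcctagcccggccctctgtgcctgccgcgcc
Foxo1, chr3:52268087-52268335, plus strand: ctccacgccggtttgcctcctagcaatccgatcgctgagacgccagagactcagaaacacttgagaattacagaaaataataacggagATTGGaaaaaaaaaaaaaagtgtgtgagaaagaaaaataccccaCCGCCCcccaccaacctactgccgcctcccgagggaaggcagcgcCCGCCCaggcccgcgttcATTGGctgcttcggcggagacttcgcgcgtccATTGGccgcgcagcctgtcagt

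In windows of 250 bases upstream of the RefSeq start, all 10 members held the GC box, against 32.7% of 32851 mouse promoters. The GC content of the members' windows was 56.0% to 78.4%, against a median of 52.4% over all promoters, and the part of GC content in the motif counts was not tested. CCAAT was in 6 of 10 (33.8% of all promoters) and CCACCC, a KLF element that partly overlaps GC boxes, in 5 of 10 (28.1%). TATAAA was in 2, Btg1 and Tob1 (12.4% of all promoters). The forkhead element was in Btg1 only (3.17%), the MYC E-box CACGTG in Klf6 only (6.02%), the CRE in Btg2 only (1.55%), and the AP-1 element TGACTCA in none (4.46%). These matches describe letters in a window and show no binding.

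All 10 members were expressed above 1 TPM in every library, against 38.7% of 21764 protein-coding genes and 21.8% of all genes. Their mean levels ran from 3.86 to 166 TPM, with a median member at 23.3, 11.4 and 10.5 TPM in replicates 1, 2 and 3. Btg1 and Btg2 together made up 72.6% ± 2.02 (SD, n = 3) of the summed TPM of the 10.

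**Figure D1:**
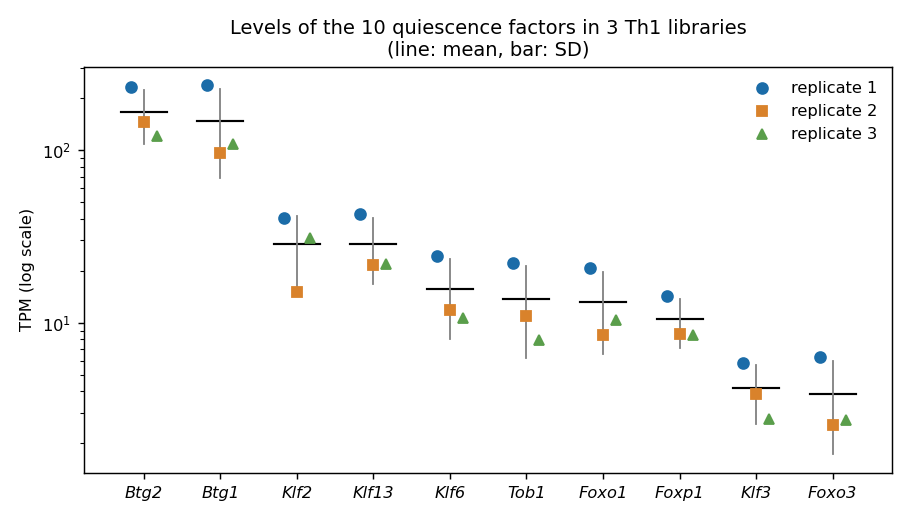
TPM (log scale) of the 10 genes in replicates 1, 2 and 3 (coloured points), with the mean (line) and SD (bar) of each gene. Btg2 and Btg1 lie above 90 TPM in every library, while Klf3 and Foxo3 lie below 7 TPM in every library, and replicate 1 is the highest point of all 10 genes.

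Btg2, an early response gene that promotes deadenylation, lies on chromosome 1 from 134075170 to 134079120, on the minus strand. It had 1391, 753 and 562 counts, or 232, 146 and 121 TPM, in replicates 1, 2 and 3, a mean of 166 ± 58.1 TPM (SD, n = 3). Its level stood between percentiles 97.6 and 98.4 of protein-coding genes. By TPM over all genes, replicate 1 was highest and the other 2 lay closer to each other. After TMM scaling replicates 1 and 2 lay close, at 269 and 266 CPM, against 208 in replicate 3.

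Btg1, its paralog, lies on chromosome 10 from 96617006 to 96622809, on the plus strand. It had 2753, 958 and 968 counts, or 238, 96.8 and 108 TPM, with a mean of 148 ± 78.7 TPM (SD, n = 3). Replicates 2 and 3 were nearly alike and replicate 1 lay well above both. By raw counts Btg1 stood above Btg2 in every library, and per base, with 5276 against 2743 exon bases, the order depended on the library: the log2 ratio of Btg2 to Btg1 was -0.04, 0.60 and 0.16, a mean of 0.24 ± 0.33 (SD, n = 3). Their levels were therefore not told apart. Btg1-ps1 and Btg1-ps2, annotated copies on chromosome X, had no count in any library, so no counts were split to them, although reads that matched several places cannot be followed here.

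Tob1, which restrains T cell proliferation and shares the deadenylase-binding domain, lies on chromosome 11 from 94211454 to 94215495. It had 111, 47 and 31 counts, or 22.2, 10.95 and 7.98 TPM, a mean of 13.7 ± 7.48 TPM (SD, n = 3). With 31 counts its level in replicate 3 had a 95% exact Clopper-Pearson interval of 5.42 to 11.3 TPM, which covers counting error only. Tob1 was below Btg1 in all 3 libraries, by -3.43 ± 0.31 on the log2 scale (SD, n = 3), a 10.7-fold difference per base over summed counts (interval 9.28 to 12.5). It was also below Tob2, its paralog and no member of the 10, by -2.22 ± 0.38 (SD, n = 3), or 4.34-fold (3.73 to 5.08). The intervals of these folds cover counting error only and leave out the spread between libraries. Tob2 had 739, 351 and 342 counts and a mean of 60.6 ± 20.8 TPM. Of the 6 genes of the BTG and TOB family 5 reached 1 TPM in every library. Btg3 had 9.40 ± 3.75 TPM, and Btg4, a gene of the egg, had no count.

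Klf2, the factor that keeps naive T cells recirculating, lies on chromosome 8 from 72319033 to 72321656, on the plus strand. It had 163, 52 and 97 counts, or 40.3, 15.0 and 30.9 TPM, in replicates 1, 2 and 3, with a mean of 28.8 ± 12.8 TPM (SD, n = 3). Replicate 2 was lowest. The intervals from counting error, 11.2 to 19.7 TPM in replicate 2 and 25.1 to 37.7 TPM in replicate 3, did not overlap.

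Klf13, a widely expressed factor that drives late chemokine expression in T cells, lies on chromosome 7 from 63886351 to 63938915, on the minus strand. It had 699, 306 and 278 counts, or 42.4, 21.7 and 21.7 TPM, with a mean of 28.6 ± 11.96 TPM (SD, n = 3). It was not told apart from Klf2: the log2 ratio to Klf2 was 0.07, 0.53 and -0.51, a mean of 0.03 ± 0.52 (SD, n = 3). Without replicate 2 that mean was -0.22. Klf13 has 7531 exon bases against 1847 in Klf2, and its counts were higher in every library.

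Klf6, an early response factor in many tissues, lies on chromosome 13 from 5861489 to 5870393. It had 226, 94 and 76 counts, or 24.5, 11.9 and 10.6 TPM, and a mean of 15.7 ± 7.67 TPM (SD, n = 3). It was below Klf2 in all 3 libraries, by -0.86 ± 0.61 on the log2 scale (SD, n = 3), or 1.80-fold per base over summed counts (interval 1.55 to 2.09). Klf3, a repressor that works through CtBP proteins, lies on chromosome 5 from 64803388 to 64832901. It had 144, 81 and 53 counts, or 5.85, 3.84 and 2.78 TPM, and a mean of 4.16 ± 1.56 TPM (SD, n = 3). Klf3 was below Klf2 by -2.71 ± 0.75 on the log2 scale, or 6.83-fold (5.79 to 8.06). The fold intervals of Klf6 and Klf3 cover counting error only and leave out the spread between libraries. The gap of Klf3 to Klf2 was widest in replicate 3, at -3.43, and narrowest in replicate 2, at -1.94, where Klf2 was at its lowest.

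Across the whole KLF family 10 of 17 genes reached 1 TPM in every library. Klf16, a GC box binding repressor outside the 10, had a level like that of Klf2 and Klf13, at 30.3 ± 17.7 TPM (SD, n = 3). Klf10, induced by transforming growth factor beta, had 14.8 ± 6.90 TPM, and Klf9 had 7.28 ± 1.97 TPM. Klf4, a relative of Klf2 that also restrains T cell proliferation, had 38, 10 and 8 counts, or 3.00 ± 2.34 TPM. Klf5, Klf12, Klf14, Klf15 and Klf17 had no count in any library. At the usual limit of 3 counts, a gene with no count and 1 kb of exons may lie at up to 1.37, 1.6 and 1.77 TPM in replicates 1, 2 and 3.

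Foxo1, the main FOXO factor of naive T cells, lies on chromosome 3 from 52268336 to 52353221, on the plus strand. It had 391, 138 and 152 counts, or 20.6, 8.49 and 10.3 TPM, with a mean of 13.1 ± 6.54 TPM (SD, n = 3). Foxo3, its relative, lies on chromosome 10 from 42181841 to 42276755. It had 105, 36 and 35 counts, or 6.34, 2.53 and 2.72 TPM, the lowest mean of the 10 at 3.86 ± 2.14 TPM (SD, n = 3). Foxo3 was below Foxo1 by a log2 ratio of -1.69, -1.70 and -1.89, a mean of -1.76 ± 0.11 (SD, n = 3), or 3.38-fold per base (interval 2.86 to 4.01). The log2 ratio of Foxo3 to Foxo1 had the smallest SD of the 8 family ratios computed, and its fold interval covers counting error only.

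Foxp1, which restrains the interleukin-7 receptor and keeps naive T cells quiescent, lies on chromosome 6 from 98925338 to 99522721. It had 430, 221 and 197 counts, or 14.3, 8.57 and 8.44 TPM, with a mean of 10.4 ± 3.34 TPM (SD, n = 3). The log2 ratio to Foxo1 was -0.53, 0.01 and -0.29, so the levels were not told apart. Gm20696 shares 300 exon bases with Foxp1 on the same strand. The command lines in the file headers list no option to count pairs shared by several genes, so pairs on shared bases would count for neither gene; Gm20696 itself had 0, 0 and 1 counts.

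In the wider FOXO and FOXP families 6 of 8 genes reached 1 TPM in every library, and the 3 highest were not among the 10 factors. Foxo4, a further FOXO factor, stood at 189 ± 32.8 TPM (SD, n = 3), from 1255, 1152 and 1339 counts. The ratio of its raw counts in replicate 1 to those in replicate 2 was 1.09. Over the 10 members the same ratio was 1.78 to 3.13. These ratios are not scaled for library size, which was largest in replicate 1. By TPM, Foxo4 had 165, 176 and 226 in replicates 1, 2 and 3, the lowest in replicate 1. No gene lies opposite Foxo4 in the tables. The nearest of the other strand, Gm614, lies 503 bases downstream and had 19, 13 and 2 counts. Foxp4 had 64.9 ± 23.0 TPM, and Foxp3, the regulatory T cell factor, which Ccdc22 opposes, had 59.6 ± 6.85 TPM with a ratio of 1.19. Foxo6 and Foxp2 had no count.

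**Figure D2:**
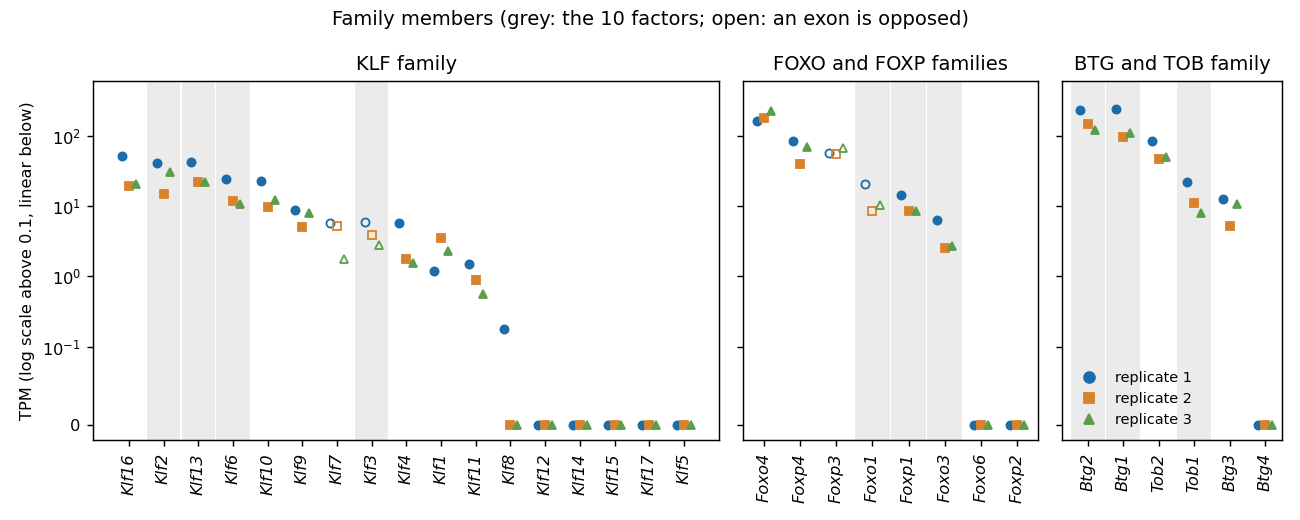
TPM of every gene of the KLF, FOXO and FOXP, and BTG and TOB families in the 3 libraries, on an axis that is logarithmic above 0.1 and linear below it. Grey bands mark the 10 factors and open symbols mark genes with an opposed exon; 8 family genes lie at 0 in every library, and Foxo4, in no band, lies highest in its family.

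Of the 8 family ratios, 5 had 1 sign in all 3 libraries: Klf6 to Klf2, Klf3 to Klf2, Foxo3 to Foxo1, Tob1 to Btg1 and Tob1 to Tob2. In an exact permutation test that flips signs (two-sided) each of these had p = 0.25, the smallest that 3 libraries allow, and an adjusted p of 0.4 over the 8. The other 3 ratios shared a sign in 2 of 3 libraries.

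**Figure D3:**
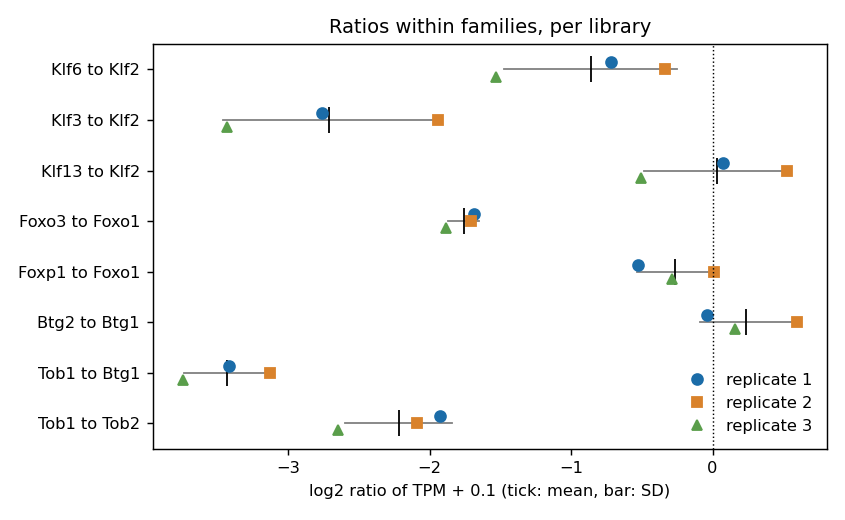
Log2 ratio of TPM + 0.1 for 8 pairs of family genes, with 1 point for each library, the mean (tick) and the SD (bar). The points of Foxo3 to Foxo1 lie close together near -1.76, and those of Klf13 to Klf2, Foxp1 to Foxo1 and Btg2 to Btg1 fall on both sides of 0.

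Ordered by mean TPM the 10 ran Btg2, Btg1, Klf2, Klf13, Klf6, Tob1, Foxo1, Foxp1, Klf3 and Foxo3. Neighbours were called apart when the difference had 1 sign in all 3 libraries and its mean exceeded its SD. This held for 4 of 9 neighbouring pairs. The step from Btg1 to Klf2 was 2.35 ± 0.48 on the log2 scale (SD, n = 3), that from Klf13 to Klf6 0.89 ± 0.12, that from Klf6 to Tob1 0.22 ± 0.16 and that from Foxp1 to Klf3 1.33 ± 0.22. The Klf6 and Tob1 intervals from counting error overlapped in every library, at 8.36 to 13.3 and 5.42 to 11.3 TPM in replicate 3. Btg2 and Btg1, Klf2 and Klf13, Tob1 and Foxo1, Foxo1 and Foxp1, and Klf3 and Foxo3 did not differ beyond their spread.

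By TPM, replicate 1 was highest for 10 of 10 members, which was also so for 70.9% of the 9469 genes that passed a filter on low counts (edgeR's filterByExpr). The number of members highest in replicate 1 depended on the library scale. After TMM scaling, which assumes that most genes do not change between libraries, replicate 1 was highest for 8 of 10, against 42.4% of all genes tested. With TPM summed only over the members and genes whose span meets no gene of the other strand it was highest for 6 of 10, against 38.3% of 4410 such genes that passed the filter. By CPM it was highest for 10 of 10 (62.8% of all genes tested) and with DESeq2 size factors for 7 of 10 (38.9%). The members' median ratio of replicate 1 to replicate 2 was 2.04 in TPM, 1.30 after TMM scaling and 1.09 on the scale of unopposed genes. The share of counts on opposed genes, lowest in replicate 1, moved with this, and its part in the result was not tested.

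**Figure D4:**
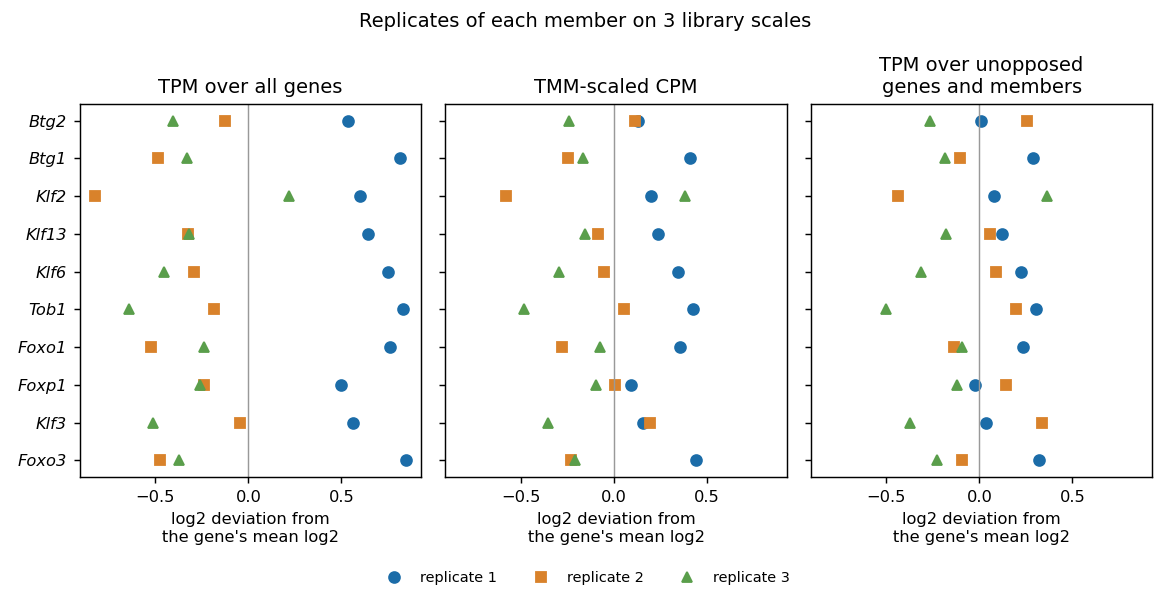
Log2 deviation of each library from the mean of the gene's 3 log2 values, for the 10 factors, on 3 library scales. On the left replicate 1 lies right of the other libraries for all 10 genes, on the right for 6, and Klf2 has replicate 2 as its lowest library in each panel.

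Under TMM scaling 8 of 10 members differed between the libraries beyond counting noise, against 60.2% of all genes tested (edgeR deviance test at dispersion 0, Benjamini-Hochberg over 9469 genes). The strongest were Btg1 (adjusted p = 2.66e-45), Btg2 (8.96e-07) and Foxo1 (1.80e-05). Klf3 (adjusted p = 0.0751) and Foxp1 (0.351) did not pass. Without replicate 1 the calls fell to 2 of 10, Btg2 and Klf2, against 25.7% of all genes tested, without replicate 2 to 7, against 42.9%, and without replicate 3 to 5, against 47.4%. In a fit of unopposed genes and members they fell to 3, against 35.9%. The counts without replicate 1, without replicate 3 and among unopposed genes are near the share of all genes.

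Those 3 were Btg1, Btg2 and Klf2. On the scale of unopposed genes Btg1 had 847, 645 and 610 TPM in replicates 1, 2 and 3, Btg2 had 823, 976 and 681, and Klf2 had 143, 100.1 and 174. The highest library was thus replicate 1 for Btg1, replicate 2 for Btg2 and replicate 3 for Klf2, an order that was not itself tested. The edgeR test asks only whether the libraries differ by more than counting noise (adjusted p = 1.78e-14, 4.92e-06 and 0.00365). Under TMM scaling each of the 3 calls was lost when 1 library was left out, with an edgeR adjusted p of 0.33 for Btg1 without replicate 1, 0.778 for Btg2 without replicate 3 and 0.449 for Klf2 without replicate 2.

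No excess of variation over genes of like abundance was detected for any of the 10. In the edgeR test against the dispersion trend 0 of 10 passed after adjustment and 0 at an unadjusted p under 0.05, where 0.253% of all genes tested (24) passed after adjustment and 610 at the unadjusted p. DESeq2 marked 0 of 10 as dispersion outliers, among 4 genes in all. The biological coefficient of variation, the relative spread between libraries beyond counting noise, is for each gene an edgeR estimate drawn toward the trend. Its nearness to the trend is thus partly built in. It ran from 0.235 (Foxp1) to 0.291 (Tob1), beside a median trend value of 0.276 over all genes tested.

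An exon of 2 of the 10 members, Foxo1 and Klf3, lay opposite an exon of another gene, and the opposite gene had more counts per base in every library. Gm20402, annotated as antisense, lies on chromosome 3 from 52268435 to 52269435 and shares 674 of its 687 exon bases with the first exon of Foxo1, the exon that follows the promoter shown earlier. It had 800, 602 and 730 counts, or 542 ± 79.8 TPM (SD, n = 3). Per base this was 25.8, 55.0 and 60.6 times Foxo1, a log2 ratio of 5.46 ± 0.67 (SD, n = 3). Raw counts of Gm20402 were highest in replicate 1, the largest library, as were those of Foxo1, at 391, 138 and 152. By TPM, Gm20402 had 532, 467 and 626 and was highest in replicate 3, whereas Foxo1 was highest in replicate 1.

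Gm20033 lies on chromosome 5 from 64708207 to 64804117 and shares 404 exon bases, 12.9% of its own, with the first exon of Klf3. It had 208, 154 and 168 counts, or 29.5 ± 2.82 TPM (SD, n = 3). Per base this was 5.20, 6.84 and 11.4 times Klf3, a log2 ratio of 2.89 ± 0.58 (SD, n = 3). The shared bases made up 7.78% of the exon bases of Foxo1 and 3.59% of those of Klf3. Over these bases only the strand of a read assigns it to either gene, so the values of Foxo1 and Klf3 are uncertain. Klf13 had genes of the other strand only within its introns: Gm27252 with 12, 37 and 12 counts and E030018B13Rik with 17, 58 and 10, both highest in replicate 2. The other 7 members met no gene of the other strand, and the nearest of those genes lay 3397 bases (Klf6) to 53170 bases (Foxp1) away.

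**Figure D5:**
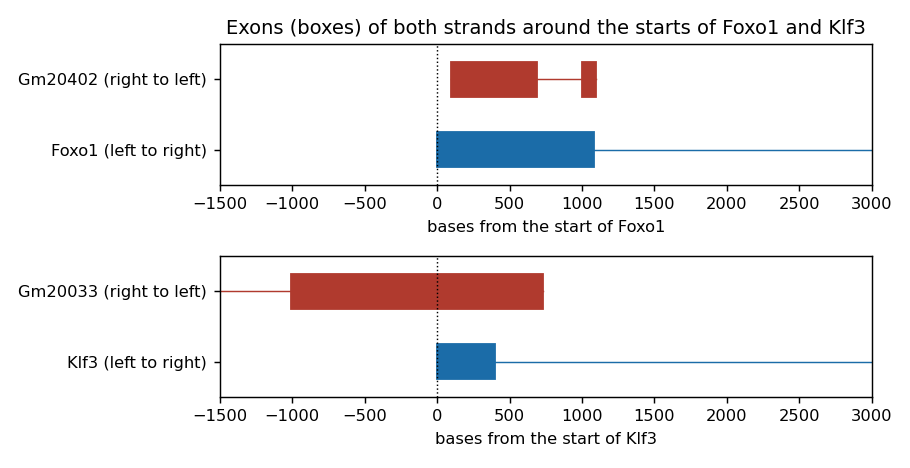
Exons (boxes) of Foxo1 and Klf3 and of the opposite genes Gm20402 and Gm20033, in bases from the member's start. Both opposite genes overlap the first exon of the member, 674 bases in Foxo1 and 404 in Klf3, and Gm20033 extends beyond the start of Klf3 whereas Gm20402 lies inside Foxo1.

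In each list of genes that work with the 10, most reached 1 TPM in every library. That was so for 38.7% of protein-coding genes and 21.8% of all genes. In the list of CCR4-NOT deadenylase and poly(A)-binding genes, the machinery that BTG and TOB proteins engage, 15 of 15 reached 1 TPM in every library (list median 13.8 ± 4.63 TPM, SD, n = 3). Pabpc1, the main poly(A)-binding protein, had 174 ± 68.0 TPM, the subunit Cnot2, which is opposed, 35.8 ± 14.6, and the deadenylase Cnot6 24.3 ± 12.5. Between libraries 6 of 15 differed beyond counting noise (edgeR, adjusted).

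Of 16 targets of KLF2 and FOXO1, 15 reached 1 TPM in every library (list median 16.9 ± 7.18 TPM, SD, n = 3). The highest were Tcf7, a factor of naive and memory T cells, at 117 ± 53.9 TPM, the chemokine receptor Ccr7 at 99.9 ± 57.6 and the interleukin-7 receptor Il7r at 32.9 ± 12.2. S1pr1, the egress receptor that KLF2 supports, had 26.9 ± 13.5 TPM. The recombinase gene Rag1 had no count. In this list 12 of 15 tested genes differed between libraries beyond counting noise.

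Among 19 regulators of FOXO factors 18 reached 1 TPM in every library (list median 10.8 ± 3.90 TPM, SD, n = 3). They were led by the 14-3-3 proteins Ywhae at 106 ± 42.6 TPM and Ywhab at 55.8 ± 30.3, which hold phosphorylated FOXO in the cytoplasm, and the kinase Stk4 at 54.1 ± 16.6. Among 14 partners and regulators of KLF factors 13 did so, with a median of 19.2 ± 7.09 TPM. The highest were Mef2d, Elf1 and Sp3 at 55.7 ± 20.7, 50.1 ± 11.97 and 36.6 ± 11.2 TPM, all 3 opposed. Beyond counting noise were 12 of 18 and 6 of 13 tested genes of these lists.

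In the list of other brakes on the T cell cycle, of 22 genes 20 were at 1 TPM or more in every library (list median 28.7 ± 8.06 TPM, SD, n = 3). The checkpoint receptor Vsir had 278 ± 105 TPM, Slfn2, a quiescence factor of the Schlafen family, 138 ± 64.9, and the diacylglycerol kinase Dgka, which is opposed, 125 ± 56.2. Of 20 tested genes 16 differed beyond counting noise.

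The contrast list of activation and growth genes had 14 of 16 at 1 TPM in every library and a median of 95.5 ± 26.8 TPM (SD, n = 3), above the members' own median of 15.1 ± 7.16 in each library. Nr4a1, induced by antigen receptor signals, had 1463 ± 603 TPM, Egr3 383 ± 30.0 and Myc 382 ± 144. The mitotic cyclin Ccnb1 had 0, 1 and 0 counts. The proliferation marker Mki67 had 35, 82 and 56 counts and the replication gene Mcm4 had 243, 94 and 103. Both reached 1 TPM in every library, so the proliferation genes of this list were mixed. No resting cells were measured for comparison. Of 15 tested genes 14 differed beyond counting noise.

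In these 6 lists of partners, targets, brakes and activation genes, as in the 3 families, 0 genes passed edgeR's trend test after adjustment. The low recovery of 2-fold changes by that test limits this count too. At an unadjusted p under 0.05 the activation list had 1 such gene and the others 0. The noise counts of the lists stand beside the same 60.2% of all genes tested.

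The protein-coding genes whose TPM over the 3 libraries lay nearest to a member were found by the root mean square difference of log2(TPM + 0.1), among 21754 genes. They were Arhgdib (0.086) and Srsf5 (0.088) for Btg2, Mat2a (0.082) and Srsf7 (0.097) for Btg1, and Aes (0.059) and Aprt (0.069) for Klf2. Aes had 41.7, 16.0 and 30.9 TPM in replicates 1, 2 and 3, with replicate 2 lowest as for Klf2. With 3 libraries such likeness is a description.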

How the data were processed

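The deposited files hold raw counts of read pairs per gene. Per the file headers, exons were counted with featureCounts 1.4.6-p4 on GENCODE vM13 gene models, with both reads aligned and strand setting 1, after an alignment step named star2; the labels give mm10, and the aligner's version is not given in the sources used here. The assay is labelled total RNA-seq, and the linked library protocol is named for poly(A)+ RNA. Symbols were matched by gene identifier for 50376 of 50600 genes. TPM and CPM were computed here from the counts and the files' exon lengths.

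Spread between libraries was tested in edgeR 4.0.16 under R 4.3.3: filterByExpr kept 9469 genes, libraries were scaled by TMM, and the model held an intercept only. Deviances at dispersion 0 (counting noise) and at the trended dispersion were set against chi-square with 2 degrees of freedom, one-sided, with Benjamini-Hochberg adjustment over all genes tested, at 0.05. On simulated counts for these 9469 genes the noise test recovered 85% of 2-fold changes in 1 library, and the trend test 2% of 2-fold and 43% of 4-fold changes. DESeq2 1.42.0 was the alternative. Overlaps were found with bedtools 2.31.1. Ratios used a pseudocount of 0.1, and their intervals are 95% exact binomial intervals of summed counts, which cover counting error only.

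The members, lists and tests were chosen with earlier results of these data known. Named beside the members were the 3 highest genes of each list and those with no count. The gene opposite a member and the 2 nearest in level to each of the 3 highest members were also named. A few others (Tbx21, Ifng, S1pr1, Klf4, Klf9, Btg3, Gm614, Ccnb1, Mki67, Mcm4 and marker genes) were named after their values were seen. RefSeq promoters were matched for all 10 members.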

Additional observations from a re-analysis of the deposited data

How the results depend on the processing

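Levels depended most on which genes entered the TPM sum. The summed level of the 10 members, 432 ± 186 TPM (SD, n = 3), became 1035 over protein-coding genes only and 2100.0 over unopposed genes and members, a scale added after the counts had been seen, because opposed and noncoding genes then left the sum. The count of members beyond counting noise, 8, ranged from 2 to 7 with 1 replicate left out and was 3 among unopposed genes and members, while the calls over all genes fell from 5697 to 2490 without replicate 1 and to 1552 of 4319 unopposed genes. Calls beyond the trend over all genes, 24, were 44 with no filter, 3 without replicate 2, 8 without replicate 3, 55 among unopposed genes and members and 4 with DESeq2, and those among members were 0 in each. Replicate 1 was highest for 10 members by TPM and by CPM, 8 with TMM, 7 with DESeq2 size factors and 6 on the unopposed scale. Without length correction 3 log2 ratios reversed: Klf6 to Klf2 became 0.32, Foxp1 to Foxo1 0.40 and Btg2 to Btg1 -0.71; Klf3 to Klf2 shrank from -2.71 to -0.14 and Klf13 to Klf2 grew from 0.03 to 2.05. With 1 replicate left out, Klf13 to Klf2 ranged from -0.22 to 0.30. Over all results, 157 of 195 recomputed values kept their direction and side of the threshold or moved within the spread. No paired analysis was possible because the 3 libraries form 1 group. Counts of 31, 35 and 53 in replicate 3, for Tob1, Foxo3 and Klf3, limit the precision of the lowest members.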
